A study of Mus musculus with 8 samples.

Results

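The genes described here are 35 genes through which astrocytes, the star-shaped support cells of the brain, take up transmitters, buffer potassium and water, couple to one another and keep their identity. They are a list of names, chosen with earlier results of these data known, and all 35 symbols were found among the 56691 gene identifiers of the deposited count table. All 35 passed the filter on low counts, which left 19912 genes. The 35 were placed in 9 role groups, which order the results.

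The libraries hold ribosome-associated messenger RNA from the ventral tegmental area of mice, the midbrain region where many dopamine neurons lie. Mice with the genotype Ogt flox+/Y or Ogt flox-/Y all received 2 adeno-associated viruses there, AAV-TH-Cre and AAV-Flex-NBL10. Cre recombinase is thus driven by a tyrosine hydroxylase promoter, and Cre switches on NBL10-HA, a tagged ribosomal protein through which ribosomes are pulled down. The question put by the series is what loss of Ogt, the enzyme that attaches O-GlcNAc to proteins, does to transcripts of dopamine neurons. The flox+/Y group (Ogt knockdown) has 4 libraries, replicates 2, 3, 4 and 5, and the flox-/Y group (control) has 4, replicates 3, 4, 5 and 6. The Y in both genotypes marks males, and neither an age nor the number of animals per library is given in the sources used here. The labels do not state that replicates are different animals. A p-value here therefore reflects the spread among these libraries, part of which may be technical. The purity of the pull-down depends on the virus promoter and was not measured apart from the markers below. Transcripts of other cells can enter such a preparation, and in these bulk libraries fewer cells of a type and less RNA per cell cannot be told apart.

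Astrocytes clear glutamate from synapses with the transporters encoded by Slc1a2 and Slc1a3 and turn it into glutamine with the enzyme encoded by Glul. They take up the potassium that firing neurons release through inward rectifier channels and the sodium pump, move water through aquaporin-4 at their vessel-facing endfeet, and share ions and metabolites through connexin gap junctions. Genes such as Sox9, Fgfr3 and Aldh1l1 are widely used to recognise the cell type, and injury or inflammation is known to change the expression of this programme together with reactive genes such as Gfap.

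Levels are given in CPM, the reads of a gene relative to the size of its library after scaling, so they are shares of a library and not amounts per cell. They are listed in the order of the replicate numbers, 3, 4, 5, 6 for control and 2, 3, 4, 5 for knockdown. Libraries held between 49802305 and 147747191 counted reads, and 3 reads, taken as the floor, equal 0.0203 to 0.0602 CPM depending on the library, which covers counting error alone. Ogt itself stood at 159, 118, 118 and 108 CPM in the control libraries and at 74.4, 47.2, 41.7 and 36.0 CPM in the knockdown libraries, without overlap (log2 fold change -1.34, adjusted p = 0.00243).

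A pair of libraries stood apart for these genes. Control replicate 3 lay below each of the other 3 control libraries for 34 of the 35 genes, with a median of 24.2% of their mean, and above them for the remaining one, Slco1c1. Over all genes tested it was the lowest control for 41.9% and the highest for 40.3%. Knockdown replicate 3 was the lowest knockdown library for 23 of the 35 genes and the highest for 5, with a median of 77.9% of the others' mean. Over all genes tested, knockdown replicate 3 was the lowest of its group for 38.6% and the highest for 33.7%. The same 2 libraries had the largest shares of reads in gene identifiers without a matched symbol, 1.81% and 1.32% against 0.327% to 0.693% in the other 6, and the part of this in the results was not tested. Results are therefore given with all 8 libraries and without control replicate 3, and also without both libraries numbered 3 where that changes a call.

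The labels call the material dopaminergic neuronal cells, and markers of that type and of others were summed in each library. Beside the counts of markers below, 13.4% of all genes tested were higher and 15.1% lower over all 8 libraries. Without control replicate 3, these shares were 18.1% and 16.8%. The 12 dopamine neuron markers summed to 3659, 1607, 1975 and 1760.3 CPM in the control libraries and to 485, 508, 739 and 768 CPM in the knockdown libraries, and all 12 fell. The 10 pan-neuronal markers summed to between 7849 and 8557 CPM in control and between 3116 and 3761 CPM in knockdown, with 9 of 10 lower. The 15 astrocyte markers, of which 10 are among the genes described here, summed to 1367, 4786, 7201 and 6736 CPM in control and to 17031, 12141, 17199 and 15175 CPM in knockdown. Astrocyte transcripts were thus present in all 8 libraries, and none of the 15 markers was at 0 in any. Of the 15, 5 were higher and 0 lower over all 8 libraries, and 11 were higher without control replicate 3. The reactive gene Gfap, which is not among the genes described here, is among the 15. Its levels, given below, made up a large part of the knockdown sums. In knockdown against control, 7 of 12 oligodendrocyte markers (summed 1809 to 4421 against 1134 to 1759.7 CPM) and 10 of 14 microglia markers (92.1 to 213 against 43.9 to 72.3 CPM) were also higher. The 12 endothelial markers summed to 1059 CPM in control replicate 3, between 30.7 and 39.3 CPM in the other controls and between 53.0 and 76.2 CPM in knockdown, with none past the threshold over 8 libraries and 8 higher without control replicate 3. The 10 pericyte and smooth muscle markers summed to 648 CPM in control replicate 3 against 24.2 to 28.3 CPM in the other controls and 40.9 to 62.9 CPM in knockdown. None of the 10 passed over all 8 libraries, and 4 were higher without control replicate 3. Over all 8 libraries, 1 of 10 oligodendrocyte precursor markers was higher and 1 lower, no more than the shares of all genes tested. On the remaining lists, 0 of 8 vascular fibroblast markers passed, and 3 of 9 ependymal markers tested were higher. Of these, 3 vascular fibroblast and 5 ependymal markers were higher without control replicate 3. Igf2 of the fibroblast list and Mia of the ependymal list were at 0 in some library, and no other marker of these lists was. Mitochondrially encoded genes held between 0.191% and 0.364% of control reads and between 0.265% and 0.713% of knockdown reads. The part of any of these shifts in the results below was not tested.

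Of the 35 astrocyte genes, 10 rose past the threshold over all 8 libraries and none fell: Slc1a2, Glul, Atp1b2, Hepacam, Gjb2, Sox9, Fabp7, Clu, Mfge8 and F3. The other 25 did not pass. This count of 10 of 35 higher and 0 lower stands beside 13.4% of all genes tested that were higher and 15.1% that were lower (28.5% in either direction). The median log2 fold change of the 35 was 1.01, and that of all genes tested was 0.00. Without control replicate 3, 21 of 35 were higher and 0 lower, beside 18.1% and 16.8% of genes, and the median was 0.71. Without both libraries numbered 3, 31 were higher and 0 lower, beside 23.5% and 23.3%, with a median of 0.84. These libraries stood apart in the values of the same 35 genes, and leaving them out can narrow the spread. The larger counts, and single genes that passed only without these libraries, are therefore a description and not separate support. All 4 knockdown libraries lay above all 4 controls for 21 of the 35 genes, beside 17.1% of genes tested, and below them for 0, beside 18.0%. The same counts, 21 and 0, held against the 3 other controls alone, beside 23.1% and 23.9%. Leaving out 1 library at a time moved the count of higher genes from 10 to between 4 and 21, the highest being that without control replicate 3. It was 4 without control replicate 4 (8.12% of all genes higher), knockdown replicate 2 (8.87%) or knockdown replicate 4 (9.26%), and 5 without knockdown replicate 5 (9.26%). It was 6 without control replicate 6 (8.43%) or knockdown replicate 3 (13%), and 10 without control replicate 5 (9.87%). Gjb2, Fabp7, Clu and Mfge8 were past the threshold in each of these 8 fits.

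**Figure D1:**
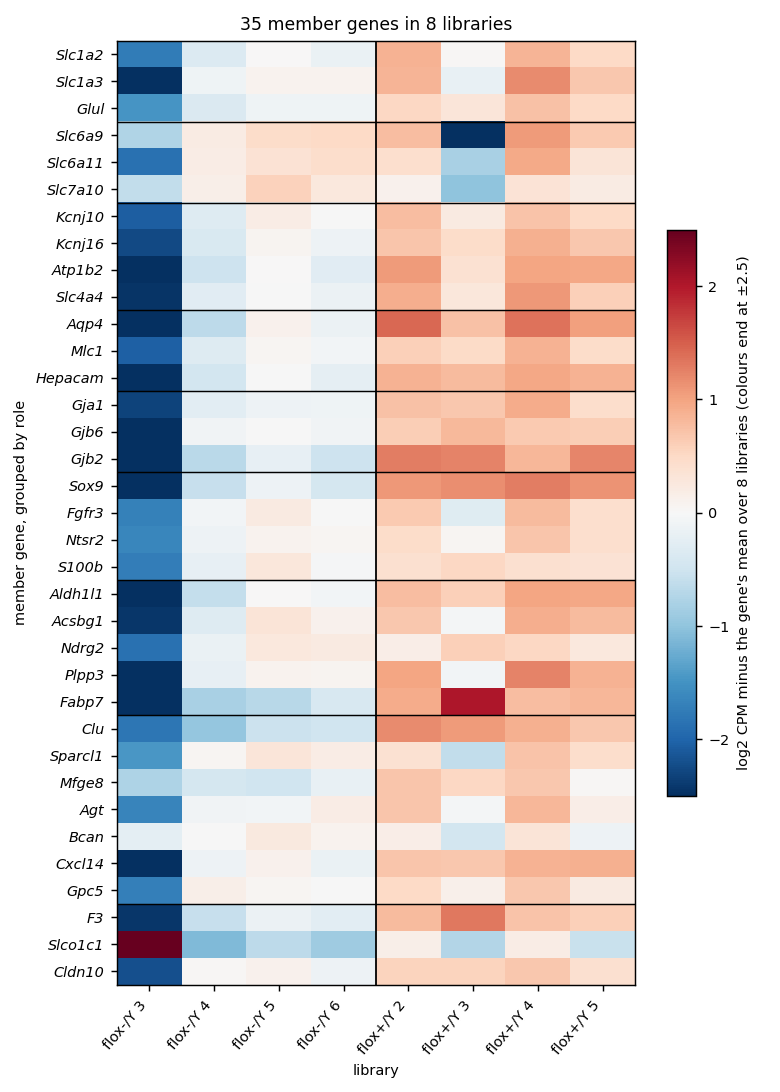
Colour shows the log2 CPM of each of the 35 genes (rows, grouped by role) minus that gene's mean over the 8 libraries (columns), with colours ending at 2.5 in either direction. The column of control replicate 3 is blue in 34 rows and red for Slco1c1, and the knockdown columns are mostly red, apart from several rows of knockdown replicate 3.

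**Figure D2:**
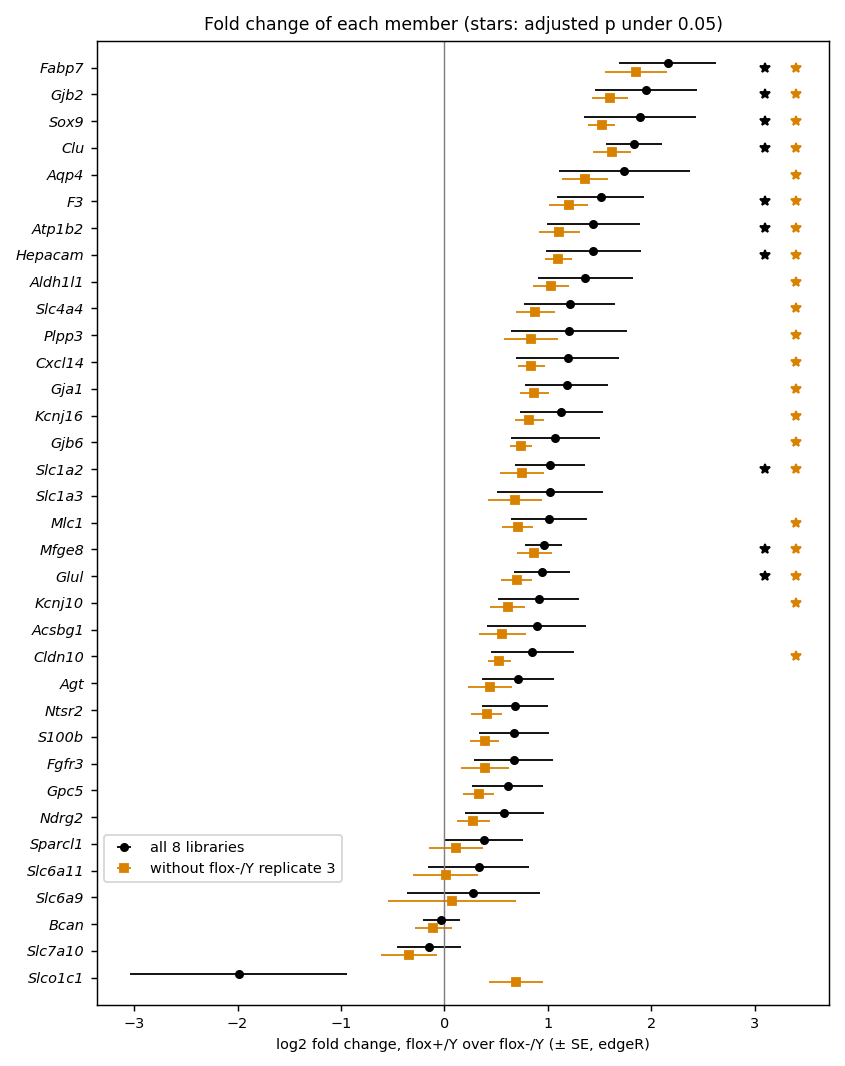
Points give the log2 fold change of knockdown over control for each gene with its standard error (horizontal bars), black for all 8 libraries and orange without control replicate 3, and stars mark an adjusted p under 0.05. Stars stand at 10 genes in black and 21 in orange, and Slco1c1 moves from the left of 0 to the right.

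In the glutamate cycle, Slc1a2, which encodes the main astrocyte glutamate transporter (GLT-1), and Glul, which encodes glutamine synthetase, rose about 2-fold, and Slc1a3, which encodes the other astrocyte transporter (GLAST), did not pass. Slc1a2 (chr2:102489004-102621129 in GRCm39 coordinates, as are the gene spans that follow) was measured at 225, 603, 770.1 and 683 CPM in control and 1392, 779.7, 1371 and 1073 CPM in knockdown. The lowest knockdown library, replicate 3, lay just above the highest control, so the groups did not overlap. Its log2 fold change was 1.02 ± 0.34 (SE, adjusted p = 0.0491), and 0.75 without control replicate 3 (adjusted p = 0.0189). The call was lost when control replicate 4 or 6 or knockdown replicate 2, 4 or 5 was left out. Glul (chr1:153775690-153785469) stood at 416, 909, 1079.6 and 1079.7 CPM in control and 1670.3, 1425, 1939 and 1638 CPM in knockdown, also without overlap. That is a log2 fold change of 0.94 ± 0.27 (SE, adjusted p = 0.0272), and 0.70 without control replicate 3 (adjusted p = 0.00534). It did not pass when knockdown replicate 2, 4 or 5, or control replicate 4, was left out (highest adjusted p = 0.0793). Slc1a3 showed 20.8, 116, 132 and 132 CPM in control against 224, 110.2, 281 and 199 CPM in knockdown. Here knockdown replicate 3 lay inside the control range while the other knockdown libraries lay above it. The log2 fold change of 1.02 ± 0.51 (SE) did not pass (adjusted p = 0.163), and neither did 0.68 without control replicate 3 (adjusted p = 0.0629). Without both libraries numbered 3 it was 0.89 (adjusted p = 0.000125).

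None of the 3 amino acid and amine transporters passed in either direction, with or without control replicate 3. Slc6a11 encodes the GABA transporter GAT-3 of astrocytes, and stood at 104, 438, 492 and 518 CPM in control and 512, 219.7, 735 and 481 CPM in knockdown. Leaving aside control replicate 3, the control libraries fell between the lowest and the highest knockdown library, and the log2 fold change of 0.33 ± 0.49 (SE, adjusted p = 0.652) went to 0.01 (adjusted p = 0.982) without that control. Slc6a9 encodes the glycine transporter GlyT1. It was measured at 17.4, 33.8, 40.3 and 41.5 CPM in control and 50.3, 3.89, 61.3 and 46.2 CPM in knockdown, where replicate 3 had 7.40% of the mean of the other 3 knockdown libraries. Its log2 fold change was 0.28 ± 0.64 (SE, adjusted p = 0.775). Without both libraries numbered 3 it was 0.45 (adjusted p = 0.00958), a call that rests on leaving out those libraries. Slc7a10, for the neutral amino acid exchanger Asc-1 that carries serine and glycine, had 18.7, 31.8, 42.9 and 34.5 CPM in control and 31.2, 14.4, 36.4 and 33.1 CPM in knockdown. The groups overlapped, and the log2 fold change was -0.15 ± 0.31 (SE, adjusted p = 0.746) and -0.34 without control replicate 3 (adjusted p = 0.355).

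The genes for potassium uptake, the sodium pump and bicarbonate showed complete separation of the groups, 4 of 4, with knockdown above control, beside 17.1% of all genes tested. Only Atp1b2 among these 4 passed over all 8 libraries, and all 4 passed without control replicate 3 (13.4% and 18.1% of all genes were higher). Atp1b2 (chr11:69490562-69496768) encodes the beta-2 subunit of the sodium pump, the isoform of glia. It read 205, 874, 1264 and 1031 CPM in control and 2597, 1632, 2464 and 2442 CPM in knockdown, a fold change of 2.71 (log2 1.44 ± 0.45 SE, adjusted p = 0.0398). Without control replicate 3 the log2 fold change was 1.11 (adjusted p = 0.00232). It did not pass when control replicate 4 or 6 or any 1 of the 4 knockdown libraries was left out (highest adjusted p = 0.0952). The inward rectifier Kcnj10 (Kir4.1), which carries the potassium conductance of astrocytes, showed 59.7, 200.1, 284 and 247 CPM in control and 428, 293, 412 and 353 CPM in knockdown. The lowest knockdown value was close to the highest control value. Its log2 fold change was 0.91 ± 0.39 (SE, adjusted p = 0.112), and 0.61 without control replicate 3 (adjusted p = 0.0211). Kcnj16 (Kir5.1), the partner subunit of Kir4.1, had 12.4, 45.3, 61.8 and 54.3 CPM in control and 95.3, 81.5, 109 and 94.3 CPM in knockdown. A wider gap separated its groups, with a log2 fold change of 1.13 ± 0.40 (SE, adjusted p = 0.0608) and 0.82 without control replicate 3 (adjusted p = 0.00206). Slc4a4, for the sodium bicarbonate cotransporter NBCe1, stood at 35.8, 162, 194 and 178 CPM against 366, 239, 415 and 298 CPM (log2 1.21 ± 0.44 SE, adjusted p = 0.0687). Without control replicate 3 it was 0.88 (adjusted p = 0.00524).

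All 3 genes of water transport and cell volume likewise had higher levels in each knockdown library than in each control (17.1% of all genes tested). Aqp4, for the water channel of the endfeet, had the largest difference of this group. Its levels were 22.6, 208, 354 and 298 CPM in control and 889, 547, 839 and 669.9 CPM in knockdown, and control replicate 3 had 7.88% of the mean of the other controls. Over all 8 libraries the log2 fold change was 1.74 ± 0.63 (SE) and did not pass (adjusted p = 0.0671). It was 1.36 without control replicate 3 (adjusted p = 0.00142). Hepacam (chr9:37278647-37297871), for the adhesion protein GlialCAM, stood at 23.0, 117, 159 and 137 CPM in control and 293, 276, 314 and 294 CPM in knockdown. The 4 knockdown libraries lay close together, at 294 ± 15.6 CPM (SD, n = 4). The gene rose by a log2 fold change of 1.44 ± 0.46 (SE, adjusted p = 0.0445), and by 1.10 without control replicate 3 (adjusted p = 0.000347). As for Atp1b2, leaving out any 1 knockdown library, or control replicate 4 or 6, ended the call (highest adjusted p = 0.0989). Mlc1, whose membrane protein GlialCAM anchors and which acts in volume control, showed 46.1, 152, 197 and 183 CPM against 287, 265, 350.2 and 262 CPM (log2 1.01 ± 0.37 SE, adjusted p = 0.0689). Without control replicate 3 it passed, at 0.71 (adjusted p = 0.00505).

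Astrocytes couple through connexin 43 (Gja1), connexin 30 (Gjb6) and, at lower levels, connexin 26 (Gjb2), and the groups did not overlap for any of the 3 genes, with knockdown above control (17.1% of all genes tested). Gjb2 and Gjb6 are neighbours on the minus strand of chromosome 14. The 250 bases before their start sites are shown because the 2 genes are adjacent and had the highest and the lowest fold change of the 3 connexins, a difference that was not tested. They come from RefSeq (GRCm38.p6), are written 5′ to 3′ along the gene, and run over chr14:57104703-57104952 for Gjb2 and chr14:57133612-57133861 for Gjb6. Capitals would mark a match to TTCNNNGAA, the core that STAT factors bind, and neither window holds one.
Gjb2: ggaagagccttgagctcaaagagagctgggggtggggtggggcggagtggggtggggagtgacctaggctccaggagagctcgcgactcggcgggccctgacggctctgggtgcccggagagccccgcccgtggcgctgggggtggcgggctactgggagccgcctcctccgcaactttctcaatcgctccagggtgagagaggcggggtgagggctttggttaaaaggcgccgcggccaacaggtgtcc
Gjb6: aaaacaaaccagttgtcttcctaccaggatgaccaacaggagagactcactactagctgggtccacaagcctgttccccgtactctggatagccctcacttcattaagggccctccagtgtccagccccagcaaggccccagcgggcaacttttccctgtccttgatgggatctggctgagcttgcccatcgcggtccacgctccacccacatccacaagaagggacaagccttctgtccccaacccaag
The Gjb2 window has a GC content of 69.2% and the Gjb6 window one of 56.8%. Gjb2 was the rarest of the 3 transcripts per kilobase of exon (2.93 CPM per kilobase in controls 4 to 6, against 35.7 for Gjb6 and 17.9 for Gja1). It was measured at 1.08, 6.05, 8.32 and 6.74 CPM in control and 23.3, 22.8, 17.1 and 22.6 CPM in knockdown. Every knockdown library was above every control, replicate 4 being the lowest of the knockdown group. The gene rose 3.86-fold (log2 1.95 ± 0.49 SE, adjusted p = 0.0161), and by a log2 fold change of 1.60 without control replicate 3 (adjusted p = 0.000209). Gjb6 had 17.4, 93.6, 98.9 and 93.6 CPM in control and 152, 175, 158 and 153 CPM in knockdown. Control replicates 4, 5 and 6 lay close together and replicate 3 far below them. The log2 fold change of 1.07 ± 0.43 (SE) did not pass (adjusted p = 0.0969) and 0.74 without control replicate 3 did (adjusted p = 0.000788). Gja1 stood at 41.2, 170.5, 188 and 191 CPM against 342, 328, 392 and 278 CPM, with a log2 fold change of 1.18 ± 0.40 (SE, adjusted p = 0.0514) and 0.87 without control replicate 3 (adjusted p = 0.00125).

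**Figure D3:**
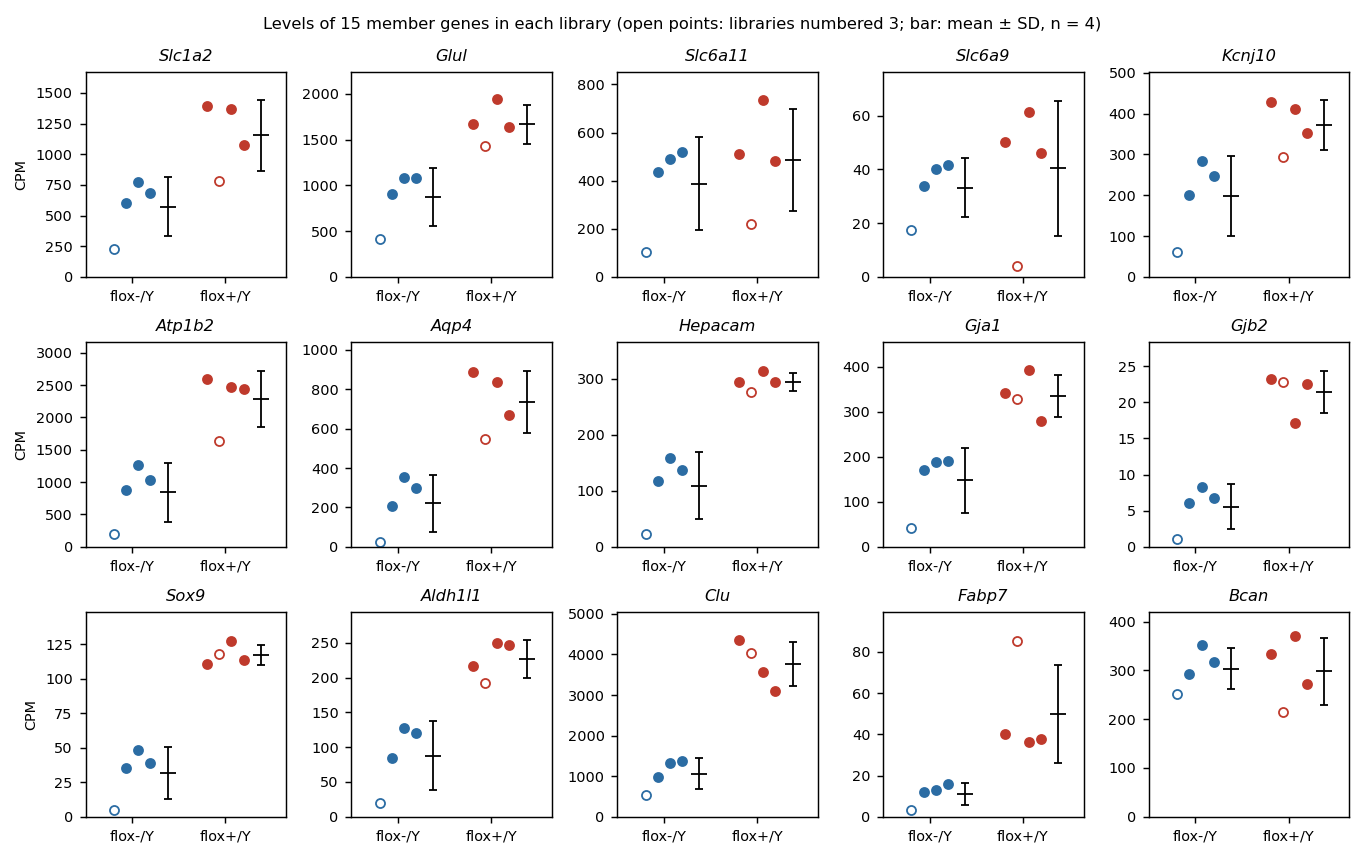
Each panel gives the CPM (vertical axis, from 0) of 1 gene in the 4 control (blue) and 4 knockdown (red) libraries, with open points for the libraries numbered 3 and a bar for the mean and SD (n = 4). The groups are apart for Aqp4, Hepacam, Gja1, Gjb2, Sox9, Aldh1l1 and Clu, and they overlap for Slc6a11, Slc6a9 and Bcan.

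Among the identity factors and receptors, Sox9 rose and the other 3 did not pass over 8 libraries or without control replicate 3. Of all genes tested, 13.4% and 18.1% were higher in these fits. Sox9 (chr11:112673050-112678586), a transcription factor that specifies glia and stays on in astrocytes, read 4.63, 35.4, 48.2 and 38.8 CPM in control and 111, 118, 128 and 114 CPM in knockdown. The gap between the highest control and the lowest knockdown library was wide, and knockdown replicate 3 did not stand apart. Its fold change was 3.69 (log2 1.89 ± 0.54 SE, adjusted p = 0.0288), and the log2 value was 1.52 without control replicate 3 (adjusted p = 9.1e-05). Leaving out control replicate 4 or 6 or any 1 knockdown library ended the call, at an adjusted p of at most 0.0696. Without knockdown replicate 3, for example, it was 1.88 (adjusted p = 0.0598). Fgfr3, a fibroblast growth factor receptor of astrocytes, had 46.9, 144, 177 and 151 CPM against 239, 123, 262 and 202 CPM, and its groups overlapped through knockdown replicate 3 (log2 0.67 ± 0.38 SE, adjusted p = 0.217). Ntsr2, a neurotensin receptor that astrocytes carry, had 69.8, 199, 229 and 224 CPM against 295, 224, 347 and 288 CPM (log2 0.68 ± 0.32 SE, adjusted p = 0.144). S100b, a calcium-binding protein of astrocytes, was at 92.9, 268, 378 and 302 CPM against 408, 443, 407 and 399 CPM. Its groups did not overlap, yet the log2 fold change of 0.67 ± 0.34 (SE) did not pass (adjusted p = 0.165), nor did 0.39 without control replicate 3 (adjusted p = 0.0533). Without control replicate 3, Fgfr3 was at 0.39 (adjusted p = 0.213) and Ntsr2 at 0.41 (adjusted p = 0.0644). Fgfr3, Ntsr2 and S100b passed without both libraries numbered 3 (23.5% of all genes higher), with log2 fold changes of 0.57, 0.51 and 0.36.

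Of the 5 genes for metabolic enzymes and lipid handling, Fabp7 rose, beside 13.4% of all genes tested. Fabp7 (chr10:57660977-57664546), a brain fatty acid-binding protein known from radial glia and immature astrocytes, stood at 3.33, 12.03, 13.1 and 16.1 CPM in control and 40.1, 85.3, 36.0 and 37.7 CPM in knockdown. Knockdown replicate 3 had 225% of the mean of the other 3, the opposite of its position for most of the 35 genes. The fold change of 4.46 was the largest of the 35 genes over all 8 libraries (log2 2.16 ± 0.47 SE, adjusted p = 0.00936). Without knockdown replicate 3 that rank was lost: the log2 value was 1.77 (adjusted p = 0.0221), below Gjb2 (1.92), Sox9 (1.88), Aqp4 (1.86) and Clu (1.8). It was 1.85 without control replicate 3 (adjusted p = 0.00144). Aldh1l1, a folate enzyme used as a pan-astrocyte marker, had 19.9, 84.0, 127 and 120.1 CPM against 216, 192, 249 and 247 CPM. There was no overlap, and the adjusted p of 0.0513 narrowly missed the threshold at a log2 fold change of 1.36 ± 0.46 (SE), while 1.03 without control replicate 3 passed (adjusted p = 0.00142). Plpp3, a lipid phosphate phosphatase, had 21.4, 150.5, 183 and 182 CPM against 343, 165, 409 and 316 CPM, with knockdown replicate 3 inside the control range (log2 1.20 ± 0.56 SE, adjusted p = 0.14). It passed without control replicate 3, at 0.84 (adjusted p = 0.0296). Acsbg1, an acyl-CoA synthetase, had 61.5, 264, 411 and 355 CPM against 526, 319, 615 and 569 CPM and did not pass with or without control replicate 3 (log2 0.89 ± 0.48 SE, adjusted p = 0.195 with it). Without both libraries numbered 3 it passed, at 0.73 (adjusted p = 0.00188). Ndrg2, an abundant astrocyte protein, had 409, 1335, 1797 and 1736 CPM against 1686, 2258, 2137 and 1795 CPM. Its groups overlapped, and the log2 fold change was 0.58 ± 0.38 (SE, adjusted p = 0.284). It was 0.28 without control replicate 3 (adjusted p = 0.222) and 0.20 without both libraries numbered 3 (adjusted p = 0.237).

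The 7 genes for secreted and matrix proteins were divided between 2 that rose, beside 13.4% of all genes tested, and 5 that did not pass. Clu (chr14:66205932-66218996), which encodes the chaperone and lipid carrier clusterin, was at 548, 980.3, 1332 and 1363 CPM in control and 4354, 4044, 3567 and 3093 CPM in knockdown. The lowest knockdown library lay far above the highest control. Its fold change was 3.56 (log2 1.83 ± 0.27 SE, adjusted p = 0.00131), and the log2 value was 1.62 without control replicate 3 (adjusted p = 0.000249). Mfge8 (chr7:78783516-78798808), which encodes a bridge between dying cells and phagocytes, was at 40.0, 50.3, 48.4 and 60.2 CPM in control and 110.5, 97.9, 109.8 and 69.5 CPM in knockdown. Control replicate 3 differed less from the other controls here than for most of the 35 genes, at 75.6% of their mean. The log2 fold change was 0.96 ± 0.18 (SE, adjusted p = 0.00367), and 0.87 without control replicate 3 (adjusted p = 0.00375). Cxcl14, a chemokine, had 22.6, 159, 187 and 153 CPM against 279.7, 277, 316 and 319 CPM with no overlap (log2 1.19 ± 0.50 SE, adjusted p = 0.105), and passed without control replicate 3 (log2 0.84, adjusted p = 0.00094). Agt, the angiotensin precursor made by astrocytes, had 76.1, 224, 226 and 269 CPM against 383, 230.3, 423 and 269 CPM (log2 0.71 ± 0.35 SE, adjusted p = 0.161). Gpc5, a glypican, had 13.99, 50.4, 47.5 and 45.2 CPM against 64.6, 49.5, 72.7 and 53.6 CPM (log2 0.61 ± 0.34 SE, adjusted p = 0.207). Both overlapped between groups, and neither passed without control replicate 3, Agt at 0.44 (adjusted p = 0.128) and Gpc5 at 0.33 (adjusted p = 0.104). Both passed without the 2 libraries numbered 3, Agt at 0.58 (adjusted p = 0.015) and Gpc5 at 0.42 (adjusted p = 0.00771). Sparcl1, which encodes the synapse-promoting protein hevin, was the most abundant of the 35 transcripts per kilobase in controls 4 to 6, and stood at 756, 2129.9, 2568 and 2366 CPM in control and 2696, 1353, 3369 and 2789 CPM in knockdown. Knockdown replicate 3 was below 3 of the 4 controls, and the log2 fold change of 0.38 ± 0.38 (SE) did not pass (adjusted p = 0.485). It was 0.11 without control replicate 3 (adjusted p = 0.772) and 0.32 without both libraries numbered 3, where it passed (adjusted p = 0.0434). Bcan, for brevican of the perineuronal matrix, had 252, 293, 353 and 317 CPM in control and 333, 216, 370.2 and 273 CPM in knockdown. The groups lay over one another (log2 -0.03 ± 0.18 SE, adjusted p = 0.928), with a value of -0.11 without control replicate 3 (adjusted p = 0.674) and 0.02 without both libraries numbered 3 (adjusted p = 0.912).

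The surface and barrier genes F3, Slco1c1 and Cldn10 behaved in 3 ways. F3 (chr3:121517186-121528697), which encodes tissue factor, the starter of coagulation at the vessel wall, stood at 15.9, 57.8, 77.7 and 71.3 CPM in control and 148, 215, 140.1 and 131 CPM in knockdown, without overlap. It rose 2.84-fold (log2 1.51 ± 0.42 SE, adjusted p = 0.0254), and by a log2 fold change of 1.20 without control replicate 3 (adjusted p = 0.00114). Without knockdown replicate 3, its highest library, the log2 value was 1.32 and did not pass (adjusted p = 0.0675), nor did it without knockdown replicate 2 or 4, or control replicate 4. Cldn10, a claudin, had 10.8, 51.0, 53.7 and 45.9 CPM against 73.2, 73.3, 79.5 and 65.3 CPM, also without overlap (log2 0.85 ± 0.40 SE, adjusted p = 0.144), and passed without control replicate 3 (log2 0.53, adjusted p = 0.00562). Slco1c1 encodes a thyroid hormone carrier known from brain endothelium as well as astrocytes, and had 109, 4.05, 5.54 and 4.70 CPM in control and 9.64, 5.23, 10.01 and 5.94 CPM in knockdown. Control replicate 3, the library with 1059 CPM of endothelial markers, had 2281% of the mean of the other controls. The log2 fold change was -1.99 ± 1.05 (SE) over all 8 libraries (adjusted p = 0.188) and 0.69 without control replicate 3 (adjusted p = 0.0644), so 1 library set its direction. Without both libraries numbered 3 it was 0.84 (adjusted p = 0.007).

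The title of the series concerns STAT3. Promoters of 30 of the 35 genes were searched for the STAT core TTCNNNGAA in the 250 bases before each start site. No window of Aqp4, Sox9, Clu, Sparcl1 or Atp1b2 was searched, and the result does not cover them. Among these, Sox9, Clu and Atp1b2 rose over all 8 libraries. The 30 genes had 40 start sites from RefSeq (GRCm38.p6). Of the 40 windows, 6, of 6 genes, held a match: Slc1a3, Kcnj16, Ntsr2, Acsbg1, Agt and Cxcl14. Of all 32851 windows in the table, 7.02% held one. The sequence ACAATG, a core bound by SOX factors, was in 0 of the 40 windows against 10.7% of all, and TTGGCA, the NFI half-site, was in 4 of 40 against 12.3% of all. Both strands were searched, the STAT core reads the same on both, and none of the motifs contains another. The windows of Cxcl14 (chr13:56296552-56296801, minus strand) and Ntsr2 (chr12:16653220-16653469, plus strand) are shown as examples with a match, in capitals, in a gene whose groups did not overlap and in one whose groups overlapped.
Cxcl14: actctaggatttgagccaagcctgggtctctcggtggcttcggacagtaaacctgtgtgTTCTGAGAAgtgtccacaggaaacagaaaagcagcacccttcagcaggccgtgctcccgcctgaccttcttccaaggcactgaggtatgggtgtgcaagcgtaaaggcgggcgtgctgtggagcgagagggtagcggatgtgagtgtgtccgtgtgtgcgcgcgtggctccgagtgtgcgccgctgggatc
Ntsr2: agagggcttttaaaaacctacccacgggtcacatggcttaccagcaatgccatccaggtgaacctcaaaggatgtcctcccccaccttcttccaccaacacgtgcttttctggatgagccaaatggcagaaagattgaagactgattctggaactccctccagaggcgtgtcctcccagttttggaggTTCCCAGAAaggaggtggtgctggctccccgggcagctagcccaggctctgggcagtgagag
The match began at -191 in Cxcl14 and at -62 in Ntsr2, counted from the start site, and a match of letters is not evidence of binding. Of these 6 genes, none passed over all 8 libraries, Kcnj16 and Cxcl14 passed without control replicate 3, and all 6 passed without both libraries numbered 3. Of all genes tested, 13.4%, 18.1% and 23.5% were higher in these 3 fits.

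Levels of different genes were compared only as CPM per kilobase of exon. In the control libraries other than replicate 3, the highest mean levels per kilobase were those of Sparcl1 (802), Ndrg2 (478), Clu (357), Glul (270.4) and Atp1b2 (259), and the lowest were those of Gjb2 (2.93) and Slco1c1 (0.918). In the knockdown libraries Clu had 1095 CPM per kilobase, above Sparcl1 at 869. Per kilobase, Slc1a2 (52.2) stood above Slc1a3 (14.8), Kcnj10 (45.0) above Kcnj16 (13.7), and Gjb6 (35.7) above Gja1 (17.9) in those controls. The length is that of all annotated exons of a gene together, not of 1 transcript, and the order of Gjb6 and Gja1 rests on it. In CPM alone, Gja1 (mean 183) stood above Gjb6 (95.3) in those controls.

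Ratios of 2 genes within the same library ask whether the 2 moved by different amounts. For 8 pairs, the log2 ratio of CPM was compared between groups by an exact two-sided permutation test over the 70 assignments of the libraries, whose smallest possible p is 0.0286. Over all 8 libraries, aquaporin-4 against Kir4.1 gave the largest difference of means among the pairs within the 35 genes. The Aqp4 to Kcnj10 log2 ratio was -1.40, 0.06, 0.32 and 0.27 in control and 1.05, 0.90, 1.03 and 0.93 in knockdown. The groups did not overlap and the mean difference was 1.17 (exact permutation p = 0.0286, adjusted over the 8 pairs 0.114). Leaving out control replicate 3 brought the difference to 0.76, and the difference of medians was 0.81. The Gjb2 to Gja1 ratio was -5.22, -4.81, -4.49 and -4.82 in control and -3.88, -3.84, -4.52 and -3.62 in knockdown, with a difference of 0.87 (exact permutation p = 0.0571, adjusted 0.114). Knockdown replicate 4 reached the control range. The difference was 0.74 without control replicate 3 and 0.96 by medians, so the order of these 2 pairs depends on that library and on the use of means. Kcnj16 to Kcnj10 shifted by 0.24 (exact permutation p = 0.0571, adjusted 0.114). The mean differences were smaller within the glutamate cycle, at 0.14 for Slc1a3 to Slc1a2 (exact permutation p = 0.771), which was -0.11 without control replicate 3, and -0.10 for Glul to Slc1a2 (exact permutation p = 0.571). Gjb6 to Gja1 differed by -0.05 (exact permutation p = 0.771), and Slc6a11 to Slc6a9 by 0.65 with knockdown replicate 3 at 5.81 against 3.35 to 3.58 in the others (exact permutation p = 0.571). Gfap, a filament protein of reactive astrocytes, to Aldh1l1 was at 3.57, 3.18, 3.81 and 3.95 in control and 5.28, 4.81, 5.00 and 4.89 in knockdown, a difference of 1.37 without overlap (exact permutation p = 0.0286, adjusted 0.114). None of the 8 pairs passed after adjustment, and a p that misses the threshold does not show equal change. With 0.0286 as the smallest possible p, a pair with groups fully apart could not pass after adjustment unless several other pairs also reached that p. The adjusted values therefore cannot decide whether a single pair differed.

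**Figure D4:**
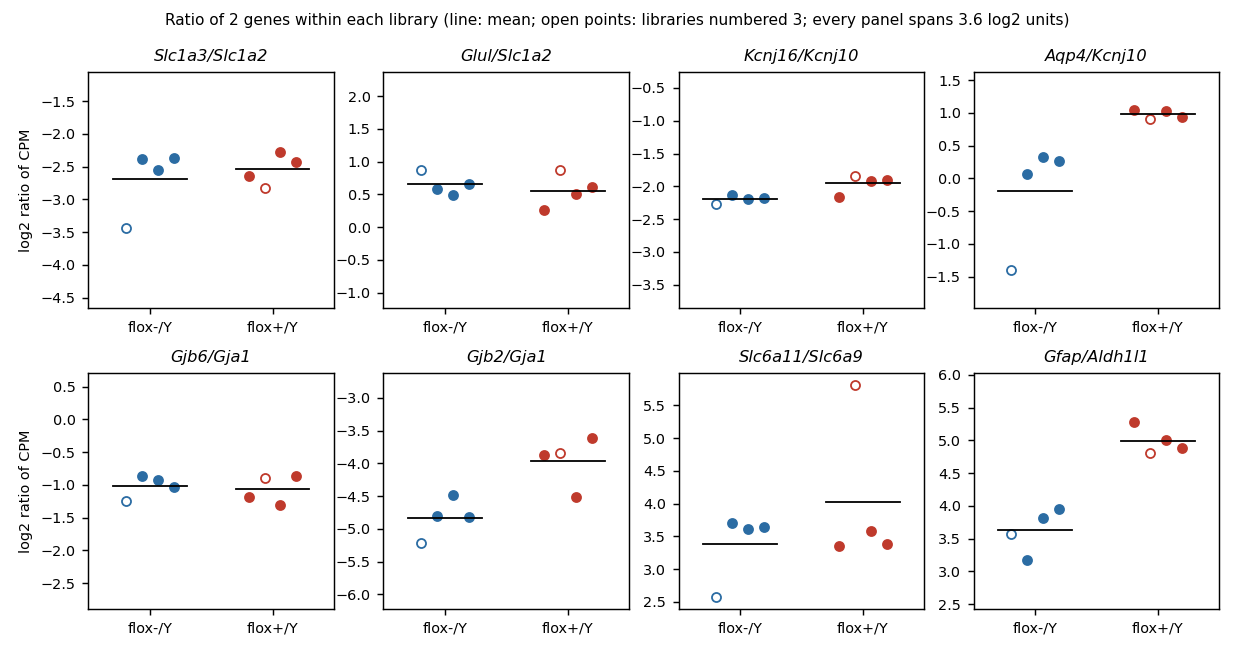
Each panel plots the log2 ratio of the CPM of 2 genes (vertical axis, every panel spanning 3.6 log2 units) in each control (blue) and knockdown (red) library, with a line at the group mean and open points for the libraries numbered 3. The groups separate for Aqp4 to Kcnj10 and Gfap to Aldh1l1, and control replicate 3 lies well below the other controls for Aqp4 to Kcnj10.

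Set against Aldh1l1 in the same library, the other 34 genes spread widely. This reference was chosen after the values were seen, so the ratios are a description with no test. The CPM of Aldh1l1 itself was higher in knockdown without overlap (log2 fold change 1.36 over all 8 libraries, adjusted p = 0.0513). A gene whose CPM stayed level, or rose less than that of Aldh1l1, therefore has a lower ratio. A lower ratio is thus not a fall of the gene itself. Over all 8 libraries, Sox9 had a higher ratio in all knockdown libraries than in all controls (mean log2 difference 0.65), while 17 genes were lower without overlap and 16 overlapped. Over all genes tested, 0.477% were higher and 59.2% lower in this way. Without control replicate 3, Sox9 (0.49), Fabp7 (0.72) and Clu (0.57) were higher without overlap and 17 were lower, beside 2.6% and 59.8% of all genes tested. Aqp4 (0.62, and 0.32 without control replicate 3) and Gjb2 (0.61 and 0.56) also had higher mean ratios, with overlap. Hepacam (0.09 and 0.06), F3 (0.05 and 0.13) and Atp1b2 (0.03 and 0.06) differed little from Aldh1l1. The lowest among those without overlap were Slc6a9 (-1.86, and -1.54 without control replicate 3), Slc7a10 (-1.84 and -1.46), Bcan (-1.71 and -1.18), Slc6a11 (-1.22 and -1.16), with Sparcl1 next at -1.21 over all 8 libraries. For Slc6a9, knockdown replicate 3 was at -5.62 and the other knockdown libraries between -2.42 and -2.02. Glul (-0.63 and -0.35) and Kcnj10 (-0.55 and -0.44) had lower ratios too, without overlap, and Slc1a2 (-0.54 and -0.33) with overlap. Their own log2 fold changes were above 0 over all 8 libraries (Glul 0.94, Kcnj10 0.91, Slc1a2 1.02) and smaller than that of Aldh1l1. Slco1c1 had the lowest mean difference (-2.14), which was -0.40 without control replicate 3.

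**Figure D5:**
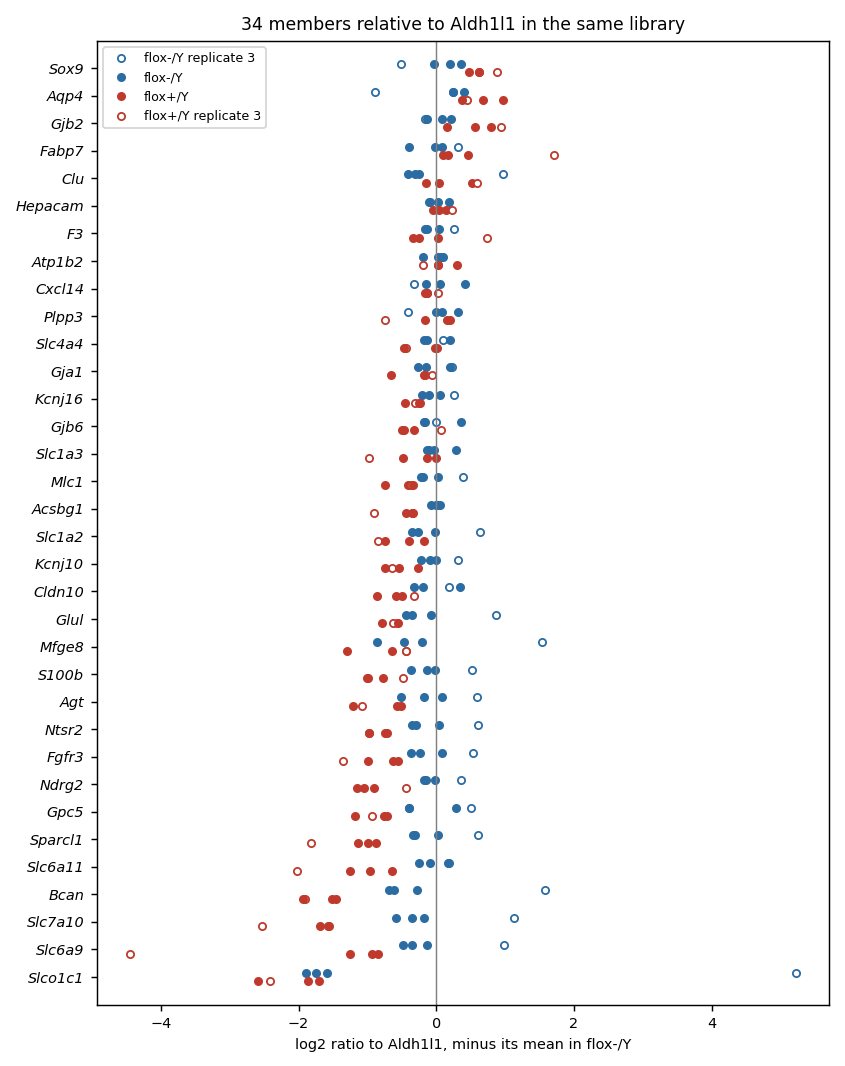
Points give, for each of 34 genes, the log2 ratio to Aldh1l1 in each library minus the mean ratio of the control libraries (horizontal axis), blue for control and red for knockdown, open for the libraries numbered 3. Genes run from Sox9 (0.65) at the top to Slco1c1 (-2.14, or -0.40 without control replicate 3) at the bottom, and the transmitter transporters Slc6a11, Slc7a10 and Slc6a9 lie among the lowest. Aldh1l1 itself was higher in knockdown (log2 fold change 1.36), so a value below 0 can be a level gene or a smaller rise.

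Other genes of the same pathways and of reactive astrocytes, on 7 lists of 115 genes that hold none of the 35, moved in both directions. Of 114 tested, 46 were higher and 18 lower (background 13.4% and 15.1%). The reactive astrocyte list alone held 22 of the 46 higher genes and 0 of the lower ones. On the list for glutamate uptake and glutamine, 0 of 14 were higher and 6 were lower, with a median log2 fold change of -0.68. Without control replicate 3, 2 were higher and 6 lower, beside 18.1% and 16.8% of all genes tested, with a median of -0.04. Those that fell over all 8 libraries include, with their log2 fold changes, the glutaminase gene Gls2 (-1.22), the aspartate aminotransferases Got1 (-1.20) and Got2 (-1.24), the glutamine transporter Slc38a1 (-1.02) and the neuronal glutamate transporter Slc1a1 (-0.91). Several of these are known mainly from neurons, whose summed markers were also lower in these libraries (3116 to 3761 against 7849 to 8557 CPM), and the part of that shift was not tested. Got1 stood at 588, 641, 624 and 645 CPM in control and 226, 292, 274 and 298 CPM in knockdown. Among genes for GABA, glycine and serine, 5 of 14 were higher and 2 lower. The higher ones, again with log2 fold changes, were the serine synthesis enzymes Psph (0.98), Psat1 (0.54) and Phgdh (0.68), with serine racemase, Srr (0.77), and the glycine cleavage enzyme Gldc (1.34). The calls of Phgdh, Srr and Gldc each ended on leaving out knockdown replicate 2, 4 or 5 or control replicate 4. The list's count of 5 was then 2 (beside 8.87%, 9.26%, 9.26% and 8.12% of all genes higher). Those of Phgdh and Gldc also ended without knockdown replicate 3 (a count of 3, beside 13% of all genes). That of Phgdh also ended without control replicate 5, and that of Gldc without control replicate 6. The lower ones were Aldh5a1 (-0.87), which completes GABA breakdown, and Gcsh (-0.54), of the glycine cleavage system.

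Sodium pump, potassium and bicarbonate genes had 5 of 16 higher and 7 lower (median log2 fold change -0.38). The count of higher genes was 3 without control replicate 4, 5 or 6 (8.12%, 9.87% and 8.43% of all genes higher). Atp1b1, a beta subunit of the pump, was at 1317, 1812, 1885 and 1805 CPM in control and 702, 554, 863 and 801 CPM in knockdown, a log2 fold change of -1.22 ± 0.18 (SE, adjusted p = 0.00127). The anion exchanger gene Slc4a3 (-1.17) fell too. Fxyd1, a pump regulator, was at 23.0, 68.7, 107 and 106 CPM against 289, 392, 263 and 269 CPM and rose (log2 1.99 ± 0.41 SE, adjusted p = 0.00729). On the list for water channel anchoring and volume, 2 of 14 were higher, Dag1 for dystroglycan (1.45) and Aqp9 (1.06), and 0 lower. That count of higher genes is near the share of all genes tested. The shares, 13.4% higher and 15.1% lower, are the background of each list here over all 8 libraries. Aqp9 did not pass when knockdown replicate 2, 4 or 5, or control replicate 4 or 6, was left out. Of connexins and pannexins of other cells, 9 of 10 were tested. Of these, 3 were higher and 2 lower (5 and 2 without control replicate 3, beside 18.1% and 16.8% of all genes). Those that were higher include the oligodendrocyte connexins Gjc3 (0.94) and Gjb1 (1.16), and the neuronal connexin Gjd2 (-1.28) and the pannexin Panx2 (-0.86) were lower.

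The astrocyte transcription factor and Notch list had 9 of 15 higher and 1 lower, with a median of 0.82. Examples are Zbtb20 (1.07), Id3 (1.15), Notch2 (1.32) and Nfib (1.04). Hes5, a Notch target, was the gene that fell (-1.68, adjusted p = 0.0222), from 1.10, 6.85, 3.30 and 3.89 CPM in control to 1.22, 1.23, 1.04 and 1.23 CPM in knockdown. Control replicate 3 lay within the knockdown range, and without it the log2 fold change was -1.98 (adjusted p = 0.000691). It did not pass when knockdown replicate 2, 4 or 5, or control replicate 4 or 6, was left out (highest adjusted p = 0.0669), or with the replicate number as a block. The count of 9 higher on this list was 5 on leaving out knockdown replicate 2 (8.87% of all genes higher) or control replicate 6 (8.43%). On the reactive astrocyte list 22 of 32 were higher and 0 lower, with a median of 2.04, against 10 of 35 and 1.01 for the homeostatic genes. Both comparisons use the same libraries, and the difference between the lists was not tested. Gfap rose from 237, 759.6, 1793 and 1860.1 CPM to 8401, 5372, 7973 and 7336 CPM (log2 2.64 ± 0.56 SE, adjusted p = 0.00789). Vim, another filament gene, was at 69.1, 25.2, 49.0 and 38.1 CPM and 283, 399.9, 168 and 306 CPM (log2 2.67 ± 0.34 SE, adjusted p = 0.000783), and the complement inhibitor gene Serping1 at 6.42, 6.47, 13.7 and 10.1 CPM and 40.5, 58.5, 28.3 and 65.4 CPM (log2 2.39 ± 0.33 SE, adjusted p = 0.000935). Control replicate 3 was the highest control for Vim and lay beside replicate 4 for Serping1, unlike its position for most of the homeostatic genes.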

How the data were processed

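The deposited values are whole-number counts of reads per gene, in a single table that the authors made with featureCounts 2.0.3 on the exons of the GENCODE M30 annotation, per the file headers. The recorded command has no setting for strand, paired counting or multiply aligned reads. Mates were thus counted singly and without strand, reads from an antisense or overlapping gene cannot be told apart, and reads shared with a near-identical copy were not counted. The submitters' processing notes name FastQC, Trimmomatic, STAR and mm10. GENCODE M30 describes GRCm39, a conflict that was not resolved, and gene spans are those of the table. Symbols came from GENCODE M21 by gene ID: 52073 of 56691 IDs matched, and unmatched IDs held 0.327% to 1.81% of reads. Promoters came from the RefSeq table (GRCm38.p6), where the start site was found in a GENCODE M21 transcript for 30 of 40.

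Library groups follow the genotype labels. Genes were filtered with filterByExpr and scaled by TMM. All genes were tested with edgeR 4.0.16 in R 4.3.3 (robust glmQLFit, glmQLFTest, two-sided, no covariates), with Benjamini-Hochberg adjustment over all genes tested and a threshold of 0.05. Genes are called higher, lower, risen or fallen at that threshold. CPM values are TMM-scaled, and within-library ratios use log2 CPM with a prior count of 2. Alternatives were DESeq2 1.42.0, voom with quality weights (limma 3.58.1), other scalings and filters, a stricter threshold, a replicate block, and leaving out libraries. The fitting code was tested on simulated data. No same-group libraries were duplicates (chi-square per degree of freedom of 22.9 or more). All 35 genes are named, and of each pathway list up to 4 genes with the smallest p, with every gene where a count is 5 or fewer. Some genes that the rule would name are not reported here. Slc1a1 and Gfap, which fall outside that rule, were named after their values were seen. The 35 genes and all lists were chosen with earlier results of these data known.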

Additional observations from a re-analysis of the deposited data

Results flagged for a closer look

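Within each group of 4 libraries, the gap in log2 CPM between the most extreme library and its nearest neighbour was divided by the group's range. A ratio above Dixon's critical value for 4 samples marks a library far from the others on that log2 scale. Of 70 tests (35 genes in 2 groups), 22 were marked, where chance marks about 1 in 20. They fell on 3 libraries. Control replicate 3 was far below the other controls for 16 genes, with ratios of 0.927 for Slc1a3, 0.894 for Slc6a11, 0.892 for Slc4a4, 0.841 for Hepacam, 0.925 for Gja1, 0.968 for Gjb6, 0.843 for Gjb2 and 0.869 for Sox9. The others of these 16 were Fgfr3 (0.847), Ntsr2 (0.881), Plpp3 (0.908), Sparcl1 (0.847), Agt (0.854), Cxcl14 (0.906), Gpc5 (0.916) and Cldn10 (0.902). It was far above them for Slco1c1 (0.905). Knockdown replicate 3 was far below the other knockdown libraries for Slc6a9 (0.897), Slc7a10 (0.833) and Atp1b2 (0.868), and far above them for Fabp7 (0.877). Knockdown replicate 4 was far below the others for Gjb2 (0.902). The genes of 1 library are not independent of each other, so these marks repeat a small number of libraries.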

How the results depend on the processing

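The count of higher genes among the 35 (10) became 12 with RLE scaling (13.8% of all genes higher), 15 with upper quartile scaling (16%) and 11 with estimation that is not robust (13.3%). It was 3 with no filter (6.04%) and 16 with a filter of at least 1 CPM in at least 4 libraries (17.8%). It was 19 with DESeq2 (17.8%), 27 with voom and quality weights (26.3%) and 31 without both libraries numbered 3 (23.5%). At a threshold of 0.01 it was 3, where 2679 of 19912 genes passed in either direction. Leaving out 1 library, it was 4 to 21. The same 10 genes were among those higher under each scaling, the CPM filter, DESeq2 and voom. No gene of the 35 was lower under any of these. The median log2 fold change of the 35 ranged from 0.71 to 1.18 leaving out 1 library. The cause of these shifts was not tested. The ratios to Aldh1l1 without control replicate 3 were added after the data were seen. Over all genes, 5668 calls became 10208 with voom, 9565 without both libraries numbered 3, 2679 at a threshold of 0.01 and 3876 to 7198 leaving out 1 library. The pathway lists' 46 higher and 18 lower became 24 higher and 13 lower at a threshold of 0.01, beside those 2679 calls. They were 31 to 57 higher and 15 to 20 lower leaving out 1 library. In those fits, 8.12% to 18.1% of all genes were higher and 10.4% to 16.8% lower.

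Same-numbered libraries correlated by 0.10, 0.10 and 0.04 in their deviations from the group means, the first 2 being the best match of each library concerned, while knockdown replicate 5 correlated best with control replicate 6 (0.08). The labels give no shared source, not every pair was above 0.1, and the numbers were not taken to pair the libraries. With the number as a replicate block, 1 of the 35 genes (Clu) was higher (2.41% of all genes), with 1258 calls over all genes. The pathway lists had 16 higher and 11 lower (2.41% and 3.91%). The median log2 fold change of the 35 was 1.35 under the block. Replicates 2 and 6 each occur in 1 group, so only the libraries numbered 3, 4 and 5 bear on the comparison. A call lost there does not show that a rise is absent. Under the block Slc6a9 was -0.30 and Glul to Slc1a2 0.01.

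Signs changed for 4 genes that passed in neither direction over 8 libraries. Leaving out 1 library, Slc6a9 ranged from -0.02 to 0.66, Slc7a10 from -0.34 to 0.07, Bcan from -0.18 to 0.10 and Slco1c1 from -2.37 to 0.69. Bcan was 0.06 with upper quartile scaling, 0.00 with the CPM filter and 0.02 with voom or without both libraries numbered 3, and Slco1c1 was 0.70 with voom and 0.84 without both. Among the ratios, Slc1a3 to Slc1a2 was -0.07 by medians, -0.02 without both and -0.11 to 0.24 leaving out 1 library. Slc6a11 to Slc6a9 was -0.14 by medians and -0.21 without both. Glul to Slc1a2 ranged from -0.20 to 0.00 and Gjb6 to Gja1 from -0.12 to 0.03. Leaving out a library, the smallest p of the ratio test is 0.0571, so no ratio could pass there. Depth limits few of these values, since all 35 genes lay above 1 CPM in every library.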
